A study of Homo sapiens with 8 samples.

Results

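The genes described here encode 7 proteins reported to bind RNA oxidized at guanine or related to such binders: PCBP1 and PCBP2, which bind runs of cytosine, HNRNPK, their relative with the same KH domains, PNPT1, a 3′ to 5′ exoribonuclease of mitochondria (PNPase), YBX1, a cold-shock domain protein (YB-1), HNRNPD (AUF1), which binds AU-rich elements, and HNRNPC, which packages nuclear pre-mRNA. They were chosen by name and make up 7 of the 58735 gene identifiers in the transcript tables and 94 of the 206601 transcripts. A count above 0 in at least 1 library was present for 86 of these 94 isoforms. All 7 genes and 71 of the isoforms passed the filter on low counts. RNA was measured, not protein, so the values give the level of each binding protein's own mRNA. These levels are relative to the other RNA of the same library, in input and in pull-down. They do not give the amount that the antibody recovered.

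The cells were BEAS-2B, an established line of human bronchial epithelial cells. They were cultured on inserts with the apical surface open to the air, and were exposed to air with 1 ppm formaldehyde (FA) or clean air (CA) for 2 h, with 6 h of recovery in both treatments. RNA depleted of ribosomal RNA was sequenced directly (input, IN) or after immunoprecipitation with an antibody against 8-oxoG (pull-down, IP), which gave 4 groups of 2 biological replicates: CA_IN, FA_IN, CA_IP and FA_IP. The study's methods and 1 field of the sample descriptions give the antibody as clone 15A3, whereas the extraction text of those descriptions gives 2E2. The summed expected counts lay between 26152651 and 45144392 in input libraries and between 16883500 and 23658012 in pull-down libraries. Of the epithelial keratins KRT5, KRT7, KRT8, KRT18 and KRT19, 5 of 5 were present, with a summed level between 3625 and 6203 CPM (counts per 1000000, scaled with edgeR's TMM factors). Over both treatments 3 of the 5 were called higher in pull-down than in input, beside 393 of all 18242 genes tested. Whether this bears on the results below was not tested. The leukocyte markers PTPRC, CD3E and CD14 summed to between 4.34 and 7.43 CPM, nearly all of it CD14, and the endothelial and erythroid markers to at most 0.902 and 0.058 CPM.

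8-oxoG forms when guanine is oxidized, and it can pair with adenine as well as with cytosine. Cells carry proteins that recognise RNA holding this base. Human PNPase and YB-1 have been described as binding it, AUF1 has been linked to the decay of mRNA that holds it, and PCBP1 and PCBP2 have been tied to the fate of cells with heavily oxidized RNA. HNRNPC was also recovered in searches for proteins that bind oxidized RNA, and HNRNPK shares poly(C) binding with the PCBP proteins. The genes lie at chr2:70087477-70089203 (PCBP1, plus strand), chr12:53452102-53481162 (PCBP2, plus), chr2:55634061-55693863 (PNPT1, minus), chr1:42682418-42703805 (YBX1, plus), chr4:82352498-82374503 (HNRNPD, minus), chr14:21209136-21269494 (HNRNPC, minus) and chr9:83968083-83980631 (HNRNPK, minus) of GRCh38. Most of them make several isoforms, so both the gene sum and the isoforms were examined.

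The alternative stretches that separate the main isoforms of HNRNPC, HNRNPK and HNRNPD are shown because the isoform results turn on them. All are on the minus strand of GRCh38 and are written 5′ to 3′ in the direction of the gene, with the alternative bases in capitals and the neighbouring bases in lower case.
HNRNPC C2 stretch, chr14:21230946-21231026: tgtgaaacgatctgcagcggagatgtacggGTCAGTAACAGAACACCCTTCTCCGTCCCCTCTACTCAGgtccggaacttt
HNRNPC acceptor, chr14:21211534-21211590: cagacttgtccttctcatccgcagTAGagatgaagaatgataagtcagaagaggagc
HNRNPK 72-base exon, chr9:83973890-83973985: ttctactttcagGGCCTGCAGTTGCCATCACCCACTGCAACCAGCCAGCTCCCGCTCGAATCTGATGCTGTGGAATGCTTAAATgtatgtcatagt
HNRNPD exon 2, chr4:82371516-82371596: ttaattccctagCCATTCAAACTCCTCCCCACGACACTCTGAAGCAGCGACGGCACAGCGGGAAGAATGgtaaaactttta

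The 39 capitals of the first sequence extend a coding exon and distinguish hnRNP C2 from hnRNP C1, and both the stretch and the intron after it begin with GT. The 3 capitals of the second, TAG, follow CAG at the end of an intron, so that the exon can begin 3 bases earlier or later. The remaining 2 are whole exons of 72 and 57 bases that are included or skipped, with 12 intron bases on each side.

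Per length, the 7 genes spanned a wide range. As CPM per kb of effective length, the mean over all 8 libraries was 1111 for YBX1, 725.9 for HNRNPC, 468.7 for HNRNPK, 137 for PCBP2, 51.1 for HNRNPD, 27.0 for PNPT1 and 11.7 for PCBP1. Among the genes tested, YBX1 lay at the 99.2 percentile of this level and PCBP1 at the 66.7 percentile. The ranges over the libraries did not overlap between neighbours in this order: the lowest library of YBX1 held 995 and the highest of HNRNPC 857, and the lowest of PNPT1 held 23.4 and the highest of PCBP1 14.7. The order of the 7 genes was therefore the same in input and pull-down and in both treatments.

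**Figure D1:**
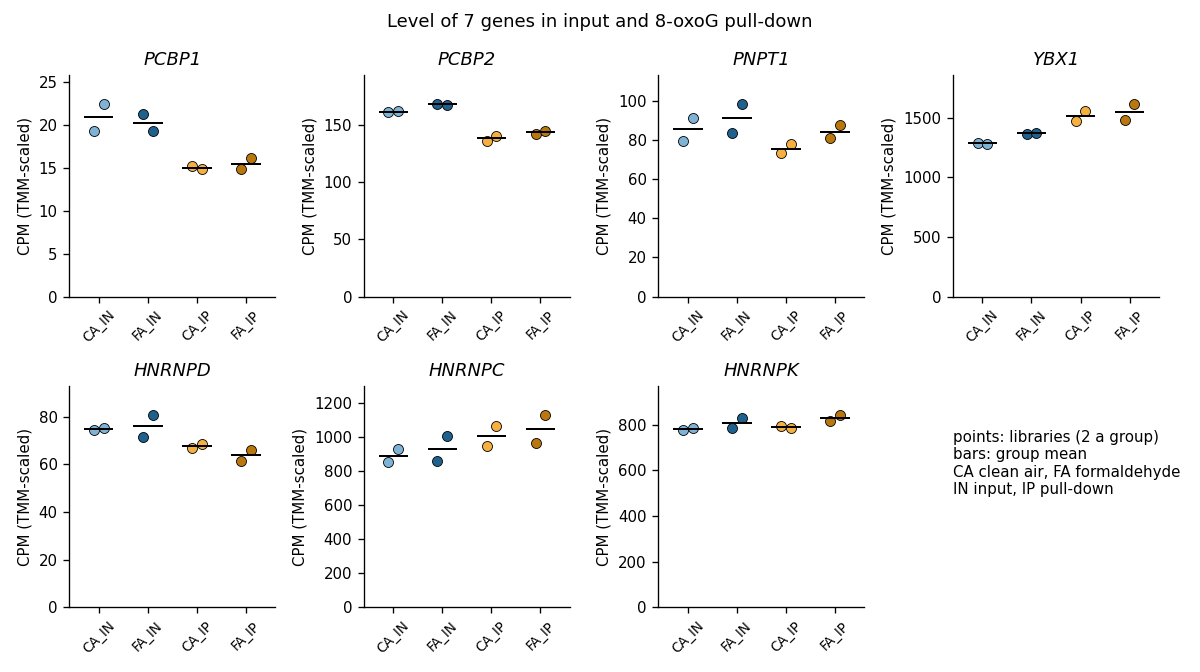
Level of each gene in CPM, scaled with edgeR's TMM factors, in CA_IN, FA_IN, CA_IP and FA_IP; points are libraries (2 a group), bars are group means and each vertical axis starts at 0. The 4 pull-down points of PCBP1, PCBP2 and HNRNPD lie below their 4 input points and those of YBX1 above them, while FA_IN and CA_IN lie close together for all 7 genes.

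In input RNA, none of the 7 mRNAs was called as changed by formaldehyde. Tests used edgeR's quasi-likelihood method on gene sums with Benjamini-Hochberg adjustment over all 18242 genes tested, and 0 of the 7 genes were called between FA_IN and CA_IN, 0 had an unadjusted p under 0.05, and DESeq2 on the same libraries also called 0. Over all genes, 0.00548% were called in this comparison without a block, and 611 of 18242 had an unadjusted p under 0.05. RNA of whole cultures was measured, so fewer cells making an mRNA and less of it per cell cannot be told apart.

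YBX1 stood at 1289 and 1282 CPM in CA_IN and at 1365 and 1375 CPM in FA_IN. Both formaldehyde libraries were above both clean air libraries, by a log2 fold change of 0.09 ± 0.08 (SE, 95% interval -0.09 to 0.28, adjusted p = 0.945). PCBP2 stood at 161 and 162 CPM in CA_IN and at 168 and 167 CPM in FA_IN, again without overlap and with a log2 fold change of 0.06 ± 0.07 (SE, interval -0.11 to 0.22). HNRNPK also did not overlap, by a margin of under 1 CPM. With 2 libraries against 2, an exact permutation p cannot go below 0.333, so such separation is weak evidence. The share of all genes that separated in this comparison was not computed. For PCBP1, PNPT1, HNRNPD and HNRNPC the libraries of the 2 groups overlapped. Within both replicate numbers PNPT1 and HNRNPC were higher in FA_IN, but no source used here says what a number shares between the treatments.

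PCBP1 held 19.3 and 22.5 CPM in CA_IN against 21.3 and 19.3 CPM in FA_IN. PNPT1 held 79.4 and 91.2 CPM against 83.7 and 98.4 CPM. The interval of the log2 fold change ran from -0.34 to 0.26 for PCBP1, from -0.20 to 0.33 for HNRNPC and from -0.16 to 0.35 for PNPT1, the 3 widest of the 7. Over the 7 genes the median log2 fold change was 0.06, beside 0.02 over all genes tested, and the intervals reached at most 0.35 in either direction, so a 2-fold change in either direction lay outside the interval of each gene.

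Pull-down against input separated the genes. Averaged over both treatments, PCBP1 and PCBP2 were lower in the pull-down, and they were the 2 of 7 genes called, against 5.19% of all genes in either direction and 3.04% in this direction. YBX1, HNRNPC and HNRNPK lay above 0 and HNRNPD and PNPT1 below 0 without passing the adjusted test. The 4 pull-down libraries lay entirely above or below the 4 input libraries for 4 of the 7 genes (PCBP1, PCBP2, HNRNPD and YBX1), as they did for 13.7% of all genes tested.

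PCBP1, the intronless member of the family, held 19.3, 22.5, 21.3 and 19.3 CPM in the 4 input libraries and 15.2, 14.9, 14.9 and 16.1 CPM in the 4 pull-down libraries. Every pull-down library was below every input library. The log2 fold change over both treatments was -0.43 ± 0.09 (SE, interval -0.65 to -0.22, adjusted p = 0.0347), or -0.48 ± 0.13 in clean air and -0.39 ± 0.13 in formaldehyde.

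PCBP2, which shares the triple KH architecture, held between 161 and 168 CPM in input and between 136 and 144 CPM in pull-down. Its log2 fold change was -0.23 ± 0.05 (SE, interval -0.34 to -0.11, adjusted p = 0.0408), and the values for the 2 treatments taken singly were -0.23 ± 0.07 in each. HNRNPK, the third KH-domain gene, held between 776 and 830 CPM in input and between 788 and 845 CPM in pull-down. These ranges overlapped, and its log2 fold change of 0.03 ± 0.05 had an interval from -0.09 to 0.15.

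Reads of PCBP1 could be shared with its antisense partner. PCBP1-AS1 lies on the other strand (chr2:69960104-70103220), and its exons cover 73.2% of the exon bases of PCBP1. The authors' counting used no strand setting, so reads inside this overlap cannot be told apart by strand. PCBP1-AS1 held between 16.5% and 25.2% of the summed counts of the pair. With its counts added to PCBP1 the log2 fold change was -0.37 (adjusted p = 0.046). For the other members, listed pseudogenes, copies and antisense genes together held at most 0.956% of the summed counts.

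HNRNPD, which directs AU-rich mRNAs to decay, held 74.4, 75.4, 71.6 and 80.9 CPM in input and 67.1, 68.4, 61.6 and 65.9 CPM in pull-down. The groups did not overlap, and the log2 fold change of -0.20 ± 0.07 (SE, interval -0.35 to -0.05) had an adjusted p of 0.14. PNPT1, the mitochondrial exoribonuclease, held between 79.4 and 98.4 CPM in input and between 73.1 and 87.7 CPM in pull-down. These ranges overlapped, and its log2 fold change was -0.15 ± 0.08 (SE, adjusted p = 0.399).

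YBX1 held 1289, 1282, 1365 and 1375 CPM in input and 1476, 1558, 1482 and 1617 CPM in pull-down. Every pull-down library was above every input library, with a log2 fold change of 0.21 ± 0.06 (SE, interval 0.08 to 0.34, adjusted p = 0.0799). HNRNPC, which binds nascent transcripts in the nucleus, held between 854 and 1008 CPM in input and between 949 and 1135 CPM in pull-down. Its libraries overlapped between the fractions, although in each of the 4 pairs of input and pull-down with the same treatment and replicate number the pull-down was higher, by 0.15 to 0.19 on the log2 scale.

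**Figure D2:**
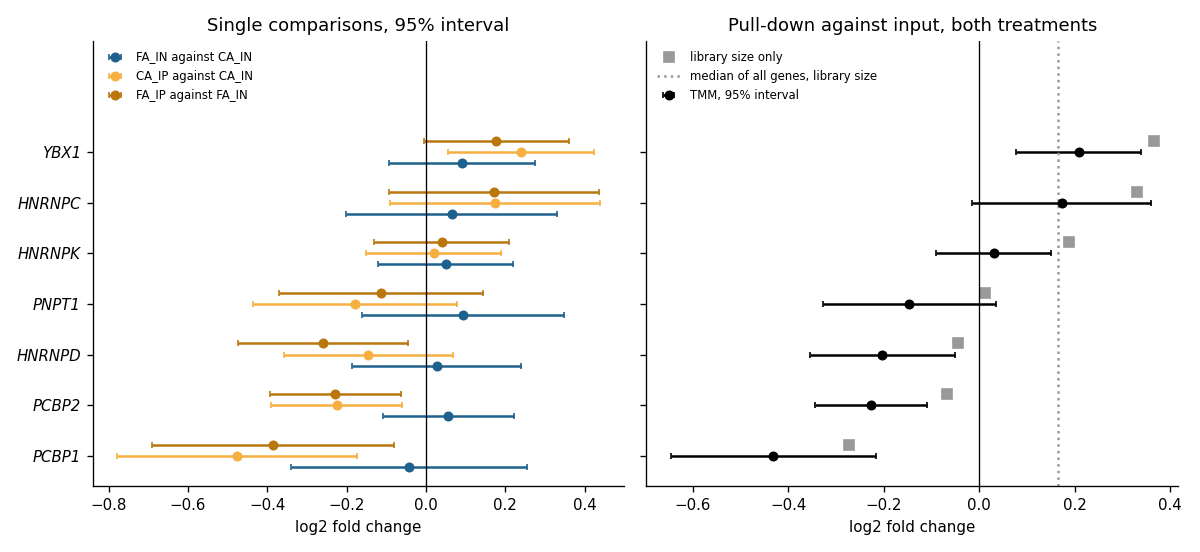
Log2 fold changes of the 7 genes with 95% intervals: on the left FA_IN against CA_IN, CA_IP against CA_IN and FA_IP against FA_IN; on the right pull-down against input over both treatments, with TMM scaling (black) and with library size only (grey squares, beside a dotted line at the median of all genes under that scaling). PCBP1 lies at -0.43 and YBX1 at 0.21 with TMM, and all 7 genes move to the right together with library size.

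The calls depended on how libraries were scaled. With library size in place of TMM the median log2 fold change of all genes moved from 0.01 to 0.16, and each of the 7 genes moved with it. PCBP1 then lay at -0.27 (adjusted p = 0.0819), PCBP2 at -0.07 and HNRNPD at -0.04, PNPT1 turned from -0.15 to 0.01, and YBX1 at 0.37, HNRNPC at 0.33 and HNRNPK at 0.19 were called higher, as were 14.0% of all genes. Of the 7 genes, 2 were lower and 0 higher with TMM, against 0 lower and 3 higher with library size. DESeq2 on all 8 libraries called PCBP1 and PCBP2 lower (adjusted p = 0.00596 and 0.0173), against 5.35% of the genes it tested in that direction, and so did edgeR with median-ratio size factors. With any 1 of the 8 libraries left out neither was called, with adjusted p between 0.0531 and 0.143 for PCBP1 and between 0.0954 and 0.182 for PCBP2, and log2 fold changes between -0.48 and -0.37 and between -0.24 and -0.22.

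Input and pull-down of 1 treatment and 1 replicate number were taken from the same RNA. With this RNA pool as a block, 6 of the 7 genes were called: PCBP1, PCBP2, HNRNPD and PNPT1 lower, against 9.64% of all genes in that direction, and YBX1 and HNRNPC higher, against 15.5%. The adjusted p over both treatments was 6.16e-05 for PCBP1, 0.000521 for PCBP2, 0.000624 for YBX1, 0.00288 for HNRNPC, 0.0036 for HNRNPD and 0.035 for PNPT1, with log2 fold changes within 0.01 of those without the block. The block was fitted with TMM only, not with library size. With TMM scaling, every pool gave the same sign for every gene. PCBP1 lay between -0.60 and -0.25, PCBP2 between -0.25 and -0.21, HNRNPD between -0.30 and -0.14, PNPT1 between -0.23 and -0.05, and YBX1 between 0.12 and 0.28.

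Ratios of 2 genes within a library do not depend on scaling. For 3 of 7 pairs computed, all chosen after values were seen and so given without a test, the ratio of YBX1 to PCBP2 counts was 8.02, 7.92, 8.11 and 8.22 in input and 10.9, 11.1, 10.4 and 11.2 in pull-down, or 1.35 times higher. The ratio of HNRNPC to PCBP1 lay between 40.3 and 52.3 in input and between 62.6 and 71.7 in pull-down. Even within the KH-domain genes the ratio of HNRNPK to PCBP2 lay between 4.67 and 4.97 in input and between 5.62 and 5.85 in pull-down. In each of these the 4 pull-down libraries lay outside the range of the 4 input libraries.

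The treatments taken singly gave 0 of 7 calls each with TMM and no block, and with library size YBX1 was called higher in each (adjusted p = 0.0229 in clean air and 0.0447 in formaldehyde). In CA_IP against CA_IN 3 of the 7 genes had an unadjusted p under 0.05 (PCBP1, PCBP2 and YBX1), as did 2294 of all 18242 genes. Of all genes, 1.91% were called. In FA_IP against FA_IN 3 of the 7 had one (PCBP1, PCBP2 and HNRNPD), as did 1660 of all 18242 genes. Here 1.5% of all genes were called. DESeq2 on all 8 libraries called 0 of the 7 in either comparison. With the RNA pool as a block, YBX1 and HNRNPC were called higher in clean air, against 11.6% of all genes, and PCBP1 and PCBP2 lower, against 5.85%. In formaldehyde PCBP1, PCBP2 and HNRNPD were called lower, against 4.6% of all genes.

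Whether formaldehyde altered the relative level in pull-down was tested directly as the difference between the treatments in pull-down against input. It was called for 0 of the 7 genes and 0.0% of all genes by edgeR without a block, and for 0 of 7 by DESeq2. By edgeR 0 of the 7 had an unadjusted p under 0.05, beside 195 of all 18242 genes. With the RNA pool as a block, 25 of 18242 genes were called, and without a filter 52 of 35784. In both, 0 of the 7 genes were called. The difference was 0.09 (interval -0.34 to 0.52) for PCBP1, -0.0026 (-0.24 to 0.23) for PCBP2, -0.06 (-0.32 to 0.20) for YBX1 and -0.11 (-0.42 to 0.19) for HNRNPD on the log2 scale. The widest of the 7 intervals was that of PCBP1, which had the fewest counts.

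Below the gene level, 16 isoforms held at least 10% of their gene in the mean of the 8 libraries. PCBP1 had 1 isoform and YBX1 in effect 1, ENST00000321358, with 98.6% to 99.2% of its counts. The other members split their counts. For PNPT1, ENST00000415374 held 50.6% to 63.7% and ENST00000447944 held 32.3% to 43.5%. The annotation gives both the same coding length of 2349 bases and labels the first as a target of nonsense-mediated decay. For PCBP2, ENST00000546463 held 25.3% to 35.2% and ENST00000550585, which carries the same decay label, 12.1% to 15.4%. In HNRNPK, ENST00000360384, which includes the 72-base exon, held 39.98% to 44.3%, and ENST00000376281, described with the pull-down shares, was larger in 3 of the 4 input libraries.

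By edgeR at the transcript level, 0 of the 71 isoforms were called in any comparison. Among all 67873 transcripts 0.0% were called in FA_IN against CA_IN, 0.242% in CA_IP against CA_IN, 0.144% in FA_IP against FA_IN, 0.582% over both treatments and 0.0% in the difference between treatments. In the same order 1, 8, 8, 15 and 2 of the 71 isoforms had an unadjusted p under 0.05. So did 1898, 4789, 4039, 6970 and 1985 of all 67873 transcripts. DESeq2 on all 8 libraries called 1, 2, 2, 6 and 1 of them, beside 0.206%, 2.28%, 1.6%, 3.96% and 0.326% of all transcripts it gave an adjusted p. Over both treatments its 6 calls were ENST00000321358 (YBX1), ENST00000457156 (HNRNPK) and ENST00000555309 (HNRNPC) higher and ENST00000303577 (PCBP1), ENST00000552819 and ENST00000562264 (both PCBP2) lower. The transcript values varied more between replicates than the gene sums, with a common coefficient of variation of 0.551 against 0.138.

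For HNRNPK, the share of the isoform that skips the 72-base exon printed above stood apart between input and pull-down. ENST00000457156, the tested isoform that skips the 72-base exon, held 10.5%, 10.6%, 11.7% and 10.4% of the gene in the 4 input libraries and 12.9%, 13.5%, 14.3% and 13.1% in the 4 pull-down libraries. All 4 pull-down values were above all 4 input values. Its counts were higher in pull-down by 0.33 ± 0.05 on the log2 scale (SE, interval 0.20 to 0.46), with an adjusted p of 0.0851 by edgeR, 1.04e-07 by DESeq2 and up to 0.282 among the alternatives. Exon use is given here and below over the counts of the isoforms that could be classed as with or without a stretch, which for this exon held 98.6% of the gene. On that base the 72-base exon was present in 88.1% to 89.5% of the counts in input and 85.6% to 86.9% in pull-down. By TPM in place of counts it was present in 80.4% to 82.0% and 76.1% to 78.4%, so the level differed but the groups again did not overlap.

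ENST00000376281, with the 72-base exon, held 39.9% to 44.3% of HNRNPK in input and 37.9% to 39.8% in pull-down. ENST00000360384, also with the exon, went the other way, from 39.98% to 42.7% in input and 41.3% to 44.3% in pull-down, with overlap. ENST00000457156, ENST00000376281 and ENST00000360384 also differ in length (1283, 2928 and 2038 bases). For ENST00000457156 this counted length is below its coding length of 1320 bases in the annotation that gave the exon structures. The counted model is therefore incomplete. ENST00000457156 is the only isoform classed as without the 72-base exon, so the percentages of exon use rest on it. Whether its share depends on the incomplete model was not tested. Whether the shift lies at the exon itself was not tested. The second alternative stretch of HNRNPK, 60 bases at the start of the last exon, was present in 57.0% to 59.7% of counts in input and 55.4% to 58.4% in pull-down, and these ranges overlapped. In PCBP2, ENST00000552819 held 9.49% to 11.6% in input and 6.90% to 9.11% in pull-down. Its counts were lower in pull-down by a log2 fold change of -0.65 ± 0.12 (SE), with an adjusted p of 0.121 by edgeR, 0.000876 by DESeq2 and up to 0.336 among the alternatives. Shares did not overlap between pull-down and input for 7 of 70 isoforms of the members, or 2 above and 5 below, against 6.05% of all isoforms, so the count by itself stands near the background.

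**Figure D3:**
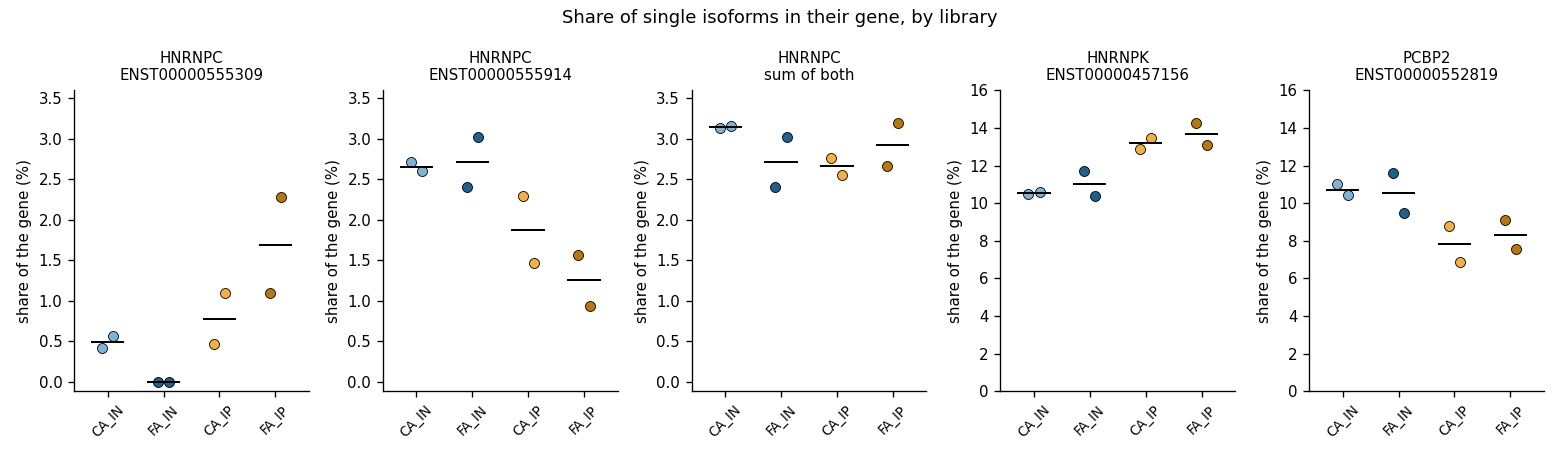
Share of single isoforms in the counts of their gene, in percent, in the 4 groups; points are libraries (2 a group) and bars group means. In HNRNPC, ENST00000555309 is at 0 in both FA_IN libraries and ENST00000555914 is present in all 8, with a sum between 2.41% and 3.20%; the HNRNPK isoform lies above its input range in all 4 pull-down libraries and the PCBP2 isoform lies below its input range.

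HNRNPC ENST00000555309 is in the study's list of transcripts with more oxidation after formaldehyde. It was selected there on these same libraries, so its values are a description and no independent evidence. Its expected counts were 155 and 191 in CA_IN and 0 in both FA_IN libraries. In pull-down they were 105 and 242 in clean air and 190 and 629 in formaldehyde. With 3 counts put in each FA_IN library as a floor, its mean level was 41.7-fold lower in FA_IN than in CA_IN. On the same floor it was 172-fold higher in FA_IP than in FA_IN. With any 1 of the input libraries left out, the first ratio lay between 33.6 and 49.9. The ratio of FA_IP to FA_IN fell to 98.4-fold without FA_IP replicate 2 and rose to 244.9-fold without FA_IP replicate 1. The floor covers counting error in the empty libraries only, not the spread in FA_IP (mean 18.3 CPM, SD 11.0). The ratios are therefore not lower bounds. The counts of 0 are themselves estimates of how reads divide between isoforms. The edgeR test gave adjusted p-values of 0.964 for FA_IN against CA_IN, 0.0889 for FA_IP against FA_IN and 0.591 for the difference between treatments, where DESeq2 on all 8 libraries gave 2.41e-05, 4.56e-10 and 1.14e-05. The highest values among the alternatives were 1.0, 0.265 and 1.0.

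The gene did not show this pattern. ENST00000555309 held 0.738% of HNRNPC counts in the mean and at most 2.28%, and the gene sum differed between FA_IN and CA_IN by a log2 fold change of 0.06 ± 0.12 (SE). It has 9 exons, as has ENST00000554455, which held 27.0% to 34.0% of the gene. In the annotation the 2 isoforms differ by 4 bases at the start of transcription, by 63 bases at the 3′ end and by the 3 bases TAG at the acceptor shown above, which ENST00000555309 lacks.

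Only 1 other annotated isoform of HNRNPC among those with the neighbouring exon border lacks these 3 bases, ENST00000555914, which was chosen after its values were seen. The 2 isoforms differ at the C2 stretch, which ENST00000555309 includes and ENST00000555914 lacks. ENST00000555914 held 1008 and 887 counts in CA_IN and 499 and 1056 in FA_IN. In pull-down it held 515 and 324 after clean air and 275 and 256 after formaldehyde, and all 4 pull-down shares lay below all 4 input shares. Where ENST00000555309 had the most counts, in FA_IP replicate 2, ENST00000555914 had the smallest share, 0.93%. The sum of both isoforms stood at 3.13% and 3.16% of the gene in CA_IN and at 2.41% and 3.03% in FA_IN, without overlap. In pull-down the sum stood at 2.76% and 2.56% after clean air and at 2.66% and 3.20% after formaldehyde, with overlap. Among the isoforms that could be classed at this border, which held 97.7% of HNRNPC counts, the 3 bases were included in 96.7% to 97.5% of counts in all 8 libraries. How the estimated counts were divided between these isoforms was not tested.

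**Figure D4:**
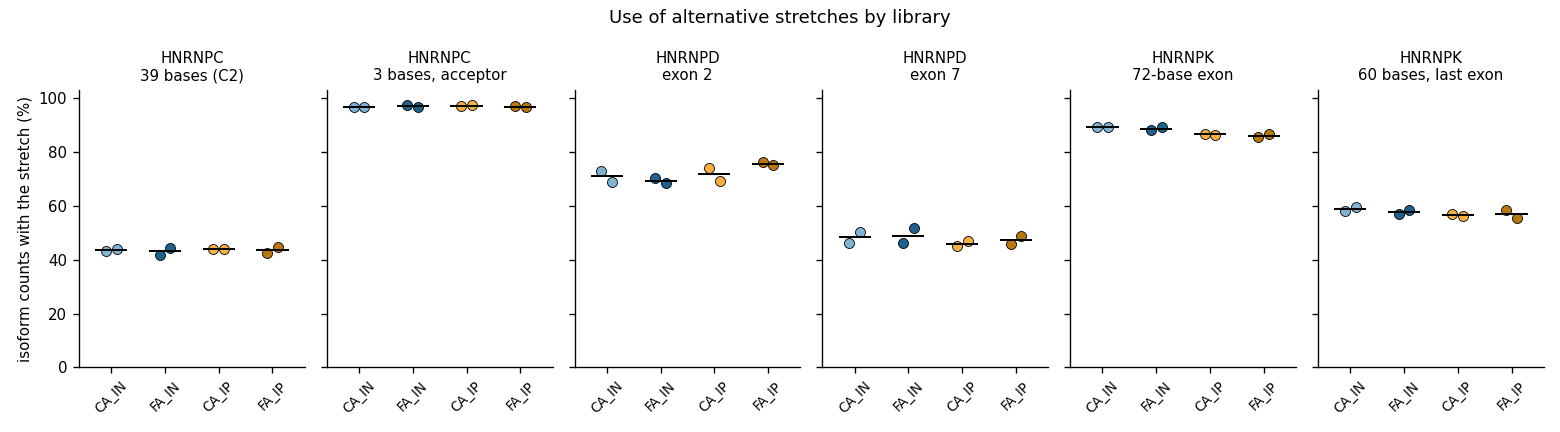
Percent of the counts of classed isoforms that include each of 6 alternative stretches, in the 4 groups; points are libraries (2 a group), bars are group means and the axis starts at 0. The 72-base exon of HNRNPK lies at 88.1% to 89.5% in input and 85.6% to 86.9% in pull-down; the other stretches overlap between input and pull-down.

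The C1 and C2 forms of HNRNPC kept a narrow balance. The 39-base C2 stretch was present in 43.1% and 44.03% of counts in CA_IN and 41.9% and 44.6% in FA_IN. In pull-down it was present in 43.9% and 43.8% after clean air and 42.6% and 44.8% after formaldehyde. Input and pull-down overlapped, as did both treatments. The most abundant isoform of the C1 type, ENST00000553300, held 34.9% to 37.8% of the gene in input and 37.3% to 40.6% in pull-down.

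AUF1 is made in forms that differ by exons 2 and 7 of HNRNPD: p37 has neither, p40 has exon 2, p42 has exon 7 and p45 has both. Among the isoforms that could be placed in a form, p40 held 45.1% to 51.4%, p42 held 26.5% to 33.9%, p45 held 14.65% to 23.0% and p37 at most 0.20%. The order p40, p42, p45, p37 held in all 8 libraries. The only isoform placed in p37, ENST00000503822, was counted on a model of 607 bases. Its coding length in the annotation that gave the exon structures is 861 bases, so the counted model is incomplete. The same holds for ENST00000507010 in p45, with 748 against 1065 bases. Whether the low share of p37 and the order of the forms depend on these models was not tested. Among isoforms that could be classed for exon 2, which held 83.3% of HNRNPD counts, it was present in 68.6% to 73.0% of counts in input and 69.4% to 76.5% in pull-down. In formaldehyde alone it stood at 70.3% and 68.6% in input and 76.4% and 75.1% in pull-down, without overlap. In clean air it stood at 73.0% and 69.1% in input and 74.2% and 69.4% in pull-down, with overlap. Separation of 2 libraries from 2 is weak evidence, and the difference between the treatments was not tested. Among isoforms that could be classed for exon 7, which held 80.6% of HNRNPD counts, it was present in 45.1% to 51.6%, with overlap between input and pull-down.

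Genes related to the members by family or function were read the same way. Between FA_IN and CA_IN 0 genes of the 6 lists were called by edgeR, with list medians between -0.04 and 0.13 on the log2 scale. Over both treatments, 2 of 22 other hnRNP genes were higher in pull-down and 0 lower, with a list median of 0.05. They were RALY, a paralog of HNRNPC, at 0.26 ± 0.06 (SE, adjusted p = 0.0373) and HNRNPF, which binds G-rich RNA, at 0.23 ± 0.05 (adjusted p = 0.0412). These counts stand beside 5.19% of all genes called in either direction. Of 7 genes of AU-rich element binding and decay, 1 was lower, ZFP36L1, which recruits deadenylases, at -0.34 ± 0.08 (adjusted p = 0.0439), with a list median of -0.13.

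Of 6 genes of mitochondrial RNA decay and stability, 1 was lower: SLIRP, a stabiliser of mitochondrial mRNA, at -0.50 ± 0.11 (SE, adjusted p = 0.0402), with a list median of -0.02. None of the 12 RNA exosome genes, the relatives of PNPase outside mitochondria, was called (median 0.06), and EXOSC7 at 0.27 ± 0.07 and EXOSC4 at 0.47 ± 0.14 had the smallest p. The same held for the 3 tested of 4 poly(C)-binding paralogs, where PCBP4 lay at 0.24 ± 0.12 and NOVA1 at -0.30 ± 0.19, and for 6 of 7 cold-shock domain genes, where CSDC2 lay at 0.57 ± 0.34 and YBX2 at -0.36 ± 0.46. The median over all genes tested was 0.01 and that over the 7 members -0.15.

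Among 11237 genes with a mean count of at least 100, the pattern of each member over the 8 libraries was most like that of a few others, as a description that rests mainly on the difference between input and pull-down and on scaling that all genes share. For PCBP2 these were RBX1 (Pearson r = 0.998) and RPL29 (r = 0.997), for YBX1 LAS1L (r = 0.997) and PDLIM7 (r = 0.996), and for PCBP1 SSH2 (r = 0.975) and SNORA73B (r = 0.971). For HNRNPC they were MOCOS (r = 0.99) and CTSB (r = 0.989), for HNRNPK GNB5 (r = 0.982) and MTIF2 (r = 0.975), for PNPT1 ASAH1 (r = 0.981) and CAV2 (r = 0.98), and for HNRNPD CHROMR (r = 0.974) and PRKD3 (r = 0.95). Within the members PCBP1 and PCBP2 had r = 0.923 and YBX1 and PCBP1 r = -0.837.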

How the data were processed

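The authors trimmed paired 75-base reads with cutadapt, aligned them with STAR 2.6.0a to GRCh38.p12 (Ensembl release 94) and estimated isoform abundance with RSEM 1.2.25 without a strand setting. They deposited, for each library, the expected count, TPM and effective length of every transcript. Another 3 tables, with log2 fold changes and p-values of the authors' own DESeq2 comparisons, were not used; those named for the 2 pull-downs were identical.

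Expected counts were summed by gene and rounded. Genes or transcripts with at least 10 counts in at least 2 of the 8 libraries were tested with edgeR 4.0.16 (TMM, quasi-likelihood, 4 groups in 1 model) in R 4.3.3, adjusting p-values after Benjamini and Hochberg and calling those under 0.05. DESeq2 1.42.0, other scalings and filters, blocks and left-out libraries were alternatives. The code was tested on simulated data. Shares are expected counts over the gene sum; the deposited TPM was an alternative. Exon structures come from GENCODE 44, whose models of some isoforms differ in length from release 94. Replicate numbers 1 and 2 stand for the numbers 1 and 3 in the table names. Same-numbered input and pull-down, which the study split from one RNA, deviated together from their group means (r = 0.771 in clean air and 0.645 in formaldehyde over 11237 genes), as did, less closely, same-numbered libraries of different treatments (r between 0.459 and 0.591 over 4 pairs of groups). Isoforms named hold at least 10% of their gene, have the smallest p in a comparison, were called or are in the study's list; ENST00000562264, called by DESeq2, and ENST00000555914 were named after their values were seen; genes named in a related list are those called, otherwise the 2 with the smallest p. The members and lists were chosen with earlier results of these data known. Intervals cover the spread between these libraries, and the floor of 3 counts covers counting error in empty libraries only. Reads carried no molecular identifiers.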

Additional observations from a re-analysis of the deposited data

How the results depend on the processing

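With any 1 of the 8 libraries left out, between 0 and 0 members were called in pull-down against input over both treatments, where 2 were called with all libraries. Members called in this comparison numbered 1 without a filter, 5 with the replicate block and 6 when the RNA pool was the block. In CA_IP against CA_IN they numbered 1 with library size, 3 with the replicate block and 4 with the RNA pool, and in FA_IP against FA_IN 1 with library size and 3 with the RNA pool, against 0. Isoforms called, against 0, numbered by DESeq2 1 in FA_IN against CA_IN, 2 in each single pull-down comparison, 6 over both and 1 in the difference between treatments. Without a filter they numbered 1, 0, 1, 2 and 1 in the same order of comparisons, and with the replicate block 1 in FA_IP against FA_IN and 1 over both. No source used here says what a replicate number shares between the treatments, but same-numbered inputs deviated together (r = 0.591). With the replicate block, 258 of 18242 genes, in place of 1, and 0 of the 7 members were called in FA_IN against CA_IN. Several small log2 fold changes, none of them called, changed sign, and the cause was not tested. With library size these were HNRNPD at -0.0126 (FA_IN against CA_IN) and 0.002 (CA_IP against CA_IN), and PNPT1 at 0.0554 (FA_IP against FA_IN) and 0.012 (over both). PCBP1 turned to 0.005 in FA_IN against CA_IN with antisense counts added. HNRNPK in CA_IP against CA_IN turned to -0.0121 (DESeq2 on 4 libraries), -0.0141 (no filter) and -0.0159 (mean count of at least 50). The difference between treatments turned for PCBP2 and HNRNPC, to 0.0059 and 0.0055 (DESeq2), 0.0214 and 0.0184 (library size), 0.0058 and 0.0055 (median-ratio factors), 0.0182 and 0.0179 (no filter) and 0.0309 and 0.0299 (mean count of at least 50). With 1 library left out, FA_IN against CA_IN ranged from -0.1489 to 0.0626 for PCBP1, -0.0523 to 0.191 for PNPT1, -0.088 to 0.0976 for HNRNPD, -0.0777 to 0.1598 for HNRNPC and -0.0127 to 0.0744 for HNRNPK. CA_IP against CA_IN ranged from -0.0031 to 0.0268 for HNRNPK and FA_IP against FA_IN from -0.2157 to 0.0275 for PNPT1. The difference between treatments ranged from -0.025 to 0.0338 for PCBP2, -0.0139 to 0.2293 for PNPT1, -0.0992 to 0.0007 for YBX1, -0.1676 to 0.0179 for HNRNPD and -0.0836 to 0.1562 for HNRNPC. Fits on 4 libraries were not made for the comparison over both treatments or for the difference between them. The RNA pool could not be a block in FA_IN against CA_IN. Having 2 libraries a group limits every test, and by TPM 14 isoforms in place of 16 held at least 10% of their gene.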
